A study of Rattus norvegicus with 6 samples.

Results

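The genes described here load amino acids onto tRNA or make serine and glycine. They are the aminoacyl-tRNA synthetases, the scaffold proteins Aimp1 and Aimp2, and the enzymes Phgdh, Psat1, Psph, Shmt1 and Shmt2. They were chosen by gene symbol, from probe sets with a single symbol in the platform annotation, with earlier results of these data known. This gave 58 probe sets for 39 genes, of 14217 genes with a symbol on the array. Each gene is represented by its brightest probe set over all arrays. Of the 39 genes, 32 encode synthetases: 17 act in the cytosol, 13 in mitochondria, and Gars1 and Kars1 each supply both compartments from a single gene. Lars2, Mars2 and Pars2 are among the synthetase genes not analysed here.

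RNA came from confluent primary cultures of spinal cord astrocytes of the rat, kept in supplemented L15 medium before isolation, and was hybridised to 6 Affymetrix Rat Genome 230 2.0 arrays. The NonTG group, 3 arrays, came from cultures without a transgene. The SOD1-G93A group, 3 arrays, came from cultures of hSOD1G93A rats, which carry human superoxide dismutase 1 with a substitution linked to familial amyotrophic lateral sclerosis. The arrays of each group have the letters A, B and C. The comparison asks how the mutant transgene alters the astrocyte transcriptome. None of the 6 arrays came from cultures with a transgene for the normal human protein. The substitution and the presence of a transgene therefore cannot be told apart. The age of the animals, the promoter of the transgene and whether the cultures of a group came from separate animals are not given in the sources used here. The p-values therefore rest on sample-to-sample spread that may be technical.

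A synthetase joins its amino acid to the matching tRNA, and ribosomes of the cytosol and of mitochondria are in most cases served by separate enzymes encoded by separate nuclear genes. Several cytosolic synthetases sit in one large multisynthetase complex that Aimp1 and Aimp2 help to hold together. Serine is made from a glycolytic intermediate by Phgdh, Psat1 and Psph in turn, and the Shmt enzymes convert it to glycine while passing a carbon to folate. In the nervous system this pathway is known to be active in astrocytes, which supply serine to neurons. When amino acids run short, uncharged tRNA activates the kinase Eif2ak4 (Gcn2), and the transcription factor Atf4 then raises many cytosolic synthetases, serine synthesis genes and amino acid transporters.

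All 10 astrocyte markers lay above the filter on dim probe sets, the 40th percentile of mean log2 signal or a signal of 66.7. Gfap, the astrocyte intermediate filament, had signals of 15999 to 17105 in NonTG and of 14400.0 to 16419 in SOD1-G93A. Of 7 microglia markers 1 lay above the filter, Laptm5, with signals of 97.2 to 161. Some fibroblast and pericyte genes were bright as well. Col1a2, a collagen chain, had signals of 19707 to 23383 and Tagln, an actin-binding protein of smooth muscle, of 11144 to 14284. All 6 fibroblast markers and 6 of 7 pericyte and smooth muscle markers lay above the filter. They were not bright throughout: Dcn, another fibroblast marker, was near the filter in NonTG. Also above the filter were 6 of 7 neuron markers, 6 of 9 oligodendrocyte lineage markers and 1 of 4 endothelial markers. In bulk RNA, fewer cells of a type and less RNA per cell cannot be told apart.

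None of the members passed the test. Of the 39 genes 37 lay above the filter and were tested, Ears2 and Nars2 did not, and limma called 0 of the 37 (adjusted p = 0.9997 for each), as it called 0% of the 18625 probe sets tested. At an unadjusted p below 0.05 there was 1 member, Iars2, where 2.64% of all tested genes were below it. The 3 arrays of SOD1-G93A lay wholly above those of NonTG for 3 members, Ears2, Hars2 and Iars2, against 3.9% of all genes measured. They lay wholly below for 2, Mars1 and Qars1, against 4.02% of all genes. The differences of the tested members ran from -0.22 to 0.39 in log2 units, and their intervals varied in width. The 95% interval of the difference lay within 2-fold in both directions for all 37 tested members and within 1.5-fold for 31 of them. The widest, that of Cars2, ran from -0.68 to 0.99. Each difference below is the mean log2 signal of SOD1-G93A less that of NonTG, with 3 arrays a group.

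**Figure D1:**
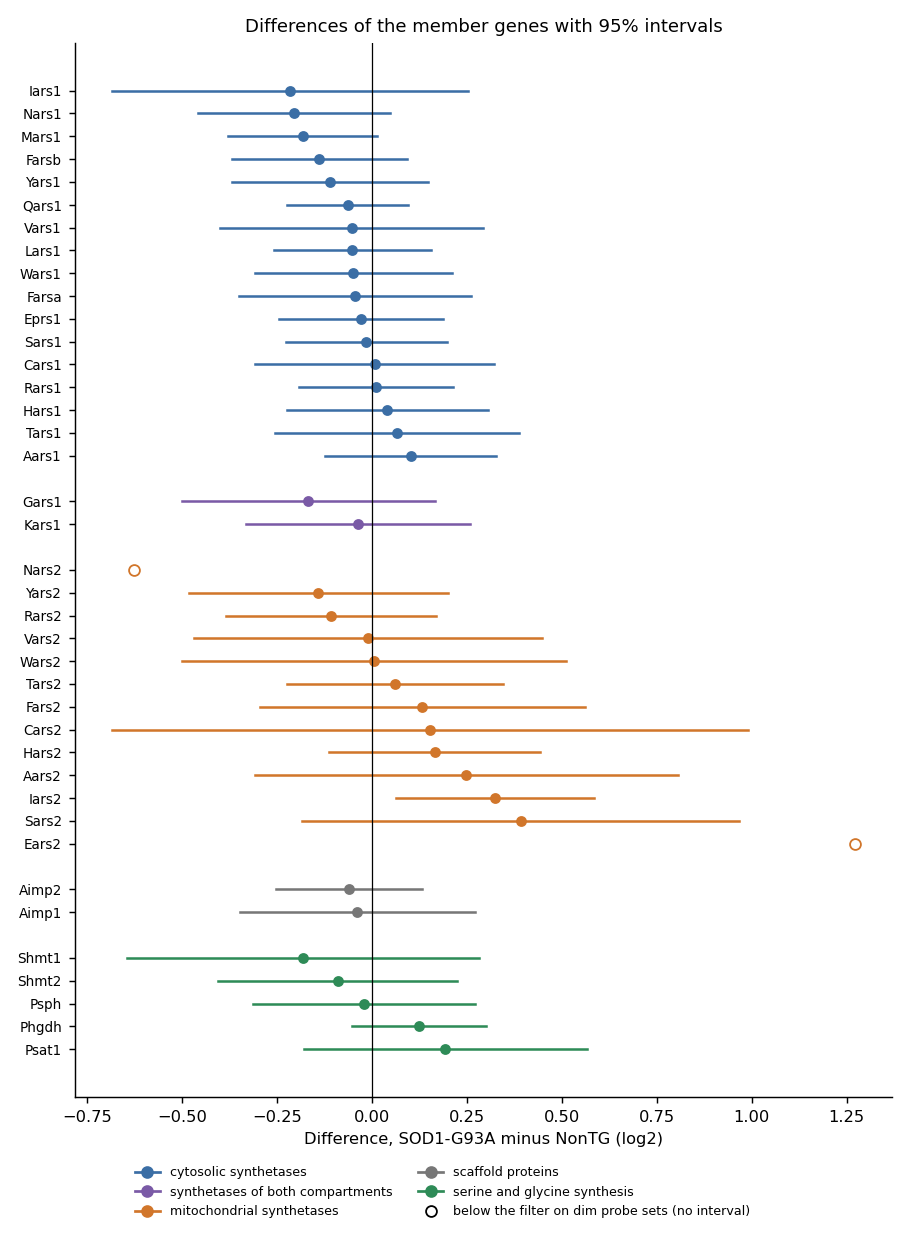
Difference of each member gene in log2 units, SOD1-G93A minus NonTG (horizontal axis), with the 95% interval from limma as a bar; open circles are the 2 genes below the filter on dim probe sets, with no interval. Of the 37 intervals only that of Iars2 (0.065 to 0.59) leaves out 0, and it did not pass after adjustment; cytosolic synthetases sit at or left of 0 more often than mitochondrial ones.

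The promoters of several cytosolic synthetases share a short sequence, shown here because the genes that hold it span the differences of the group, from Iars1, Nars1 and Mars1 at the low end to Tars1 and Aars1 at the high end. Atf4, paired with a C/EBP protein, is known to bind DNA with the core TGATGNAA. This core was searched on both strands of the RefSeq promoter windows of the GRCr8 build, 250 bases before to 50 after each gene's start. It was in 7 of the 16 cytosolic synthetase genes with a window (43.8%), against 3.98% of all 33469 windows. It was in 0 of 16 mitochondrial synthetase genes with a window and 0 of 5 serine and glycine synthesis genes. Among 20 other known amino acid response genes with a window it was in 5, namely Trib3, Chac1, Nupr1, Slc7a1 and Pck2. Rars1 and Gars1 had no window. A match is a run of letters and does not show binding. Those of 6 of the 7 synthetase genes are printed 5′ to 3′ along the gene with 11 bases on each side where the window allows, and capitals mark the core in either orientation.
Iars1, chr17:15193658-15193687, minus strand: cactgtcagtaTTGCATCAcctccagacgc
Nars1, chr18:60275778-60275807, minus strand: cctaggtgatcTGATGCAAcgcttcagtca
Mars1, chr7:65023752-65023781, minus strand: gcccgttccggTTGCATCAgcgtgggctcc
Tars1, chr2:62114811-62114840, minus strand: ctggcgtcccgTTGCATCAgctggttagct
Cars1, chr1:208225334-208225363, minus strand: cggcgccgcggTTGCATCAgattctggaaa
Yars1, chr5:146820190-146820212, plus strand: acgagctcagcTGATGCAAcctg

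Counting the start as position 1 with no position 0, the first base of the core lay at -27 in Tars1, -24 in Iars1, -17 in Mars1 and -14 in Nars1. It lay at 18 in Cars1 and at 39 in Yars1, inside the transcript. In the 6 printed matches the variable base was the same, giving one 8-base core, read forward in Nars1 and Yars1 and reversed in the others. Aars1, which is not printed, held 2 matches that differ from each other in this base.

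Cytosolic synthetases had a median difference of -0.048, with 12 of 17 negative, against a median of 0.0021 over all genes measured, of which 50.5% were positive. The range ran from -0.22 for Iars1 to 0.10 for Aars1, the alanine enzyme. The median was 0.022 without SOD1-G93A B, so its sign rests on that array. Leaving out NonTG A gave -0.0064, and leaving out SOD1-G93A A gave -0.084. Over the 7 genes with the core the median was -0.11 with 4 negative, and over the 9 whose window lacks it -0.048 with 8 negative, so median and count point opposite ways. Without SOD1-G93A B these were 0.031 and -0.0011. The difference between the 2 sets was not tested.

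Iars1, the isoleucine enzyme, had signals of 909, 813 and 886 on NonTG A, B and C, and of 1036, 531 and 759.9 on SOD1-G93A A, B and C. SOD1-G93A held both the highest array, A, and the lowest, B. The difference was -0.22 (SE 0.21, 95% interval -0.68 to 0.25), and 0.031 without SOD1-G93A B.

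Nars1, the asparagine enzyme, had NonTG signals of 3678, 3449 and 3729 against 3759, 2867 and 2869. SOD1-G93A A was the highest of the 6 arrays, while B and C were below all NonTG arrays. The difference was -0.20 (SE 0.11), and it was negative in every alternative, from -0.33 to -0.14. With the letter as a replicate block its unadjusted p was 0.0395, against 0.1 without the block; limma's adjusted p did not pass in either fit.

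Mars1, the methionine enzyme that also charges the initiator tRNA, had NonTG signals of 1562, 1534 and 1529.9, closely spaced, and SOD1-G93A signals of 1414, 1263 and 1406. All 3 SOD1-G93A arrays lay below all 3 NonTG arrays, with a difference of -0.18 (SE 0.087, 95% interval -0.38 to 0.015). A dimmer Mars1 probe set did not follow, at 0.065 (SE 0.15).

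Qars1, the glutamine enzyme, also had no overlap, but its difference was very small. Its signals were 3094, 3144 and 3117 in NonTG and 2949, 3065 and 2942 in SOD1-G93A, a difference of -0.063 (SE 0.071). Farsb, the beta subunit of the phenylalanine enzyme, had 1651, 1863 and 1486 against 1556, 1528 and 1444, overlapping groups, and a difference of -0.14 (SE 0.10), or -0.054 without NonTG B. Its partner subunit Farsa was at -0.044.

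The other cytosolic synthetases differed by -0.11 (Yars1) to 0.10 (Aars1), and the groups overlapped for each. Lars1 for leucine (-0.052), Vars1 for valine (-0.053), Wars1 for tryptophan (-0.048), Eprs1, which charges both glutamate and proline (-0.029), and Sars1 for serine (-0.014) were slightly negative. Cars1 for cysteine (0.0082), Rars1 for arginine (0.011), Hars1 for histidine (0.041) and Tars1 for threonine (0.066) were slightly positive. Aars1 had one high array, 4939 on SOD1-G93A A, beside 3886 and 4261 on B and C and 3825 to 4323 in NonTG.

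Gars1 and Kars1, the glycine and lysine enzymes of both compartments, were at -0.17 (SE 0.15) and -0.037 (SE 0.13). Gars1 signals were 2491, 2177 and 2593 in NonTG against 2748, 1844 and 1962, the order seen for Nars1: SOD1-G93A A highest, B and C lowest. Leaving out SOD1-G93A A gave a Gars1 difference of -0.34, and leaving out SOD1-G93A B one of -0.056. Kars1 had 3465, 4702 and 3552 against 3734, 4246 and 3379.9, with B the highest array of each group, and its sign turned without NonTG B (0.10) or SOD1-G93A C (0.042). A second, dimmer Gars1 probe set was at -0.011 (SE 0.14).

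The scaffold proteins of the multisynthetase complex were level between the groups. Aimp1 signals were 1466, 1207 and 1109.8 in NonTG and 1433, 1139 and 1113 in SOD1-G93A, a difference of -0.038 (SE 0.14). Both groups had their highest value on array A and their lowest on C, and the sign turned without NonTG A (0.076), SOD1-G93A B (0.012) or SOD1-G93A C (0.029). Aimp2 had 1897, 1979 and 1767 against 1889, 1752 and 1767, a difference of -0.061 (SE 0.085). Over the 10 measured members of the complex, which include Eef1e1, the third scaffold protein (0.089, SE 0.11), the median was -0.045, 8 were negative and 0 were called.

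**Figure D2:**
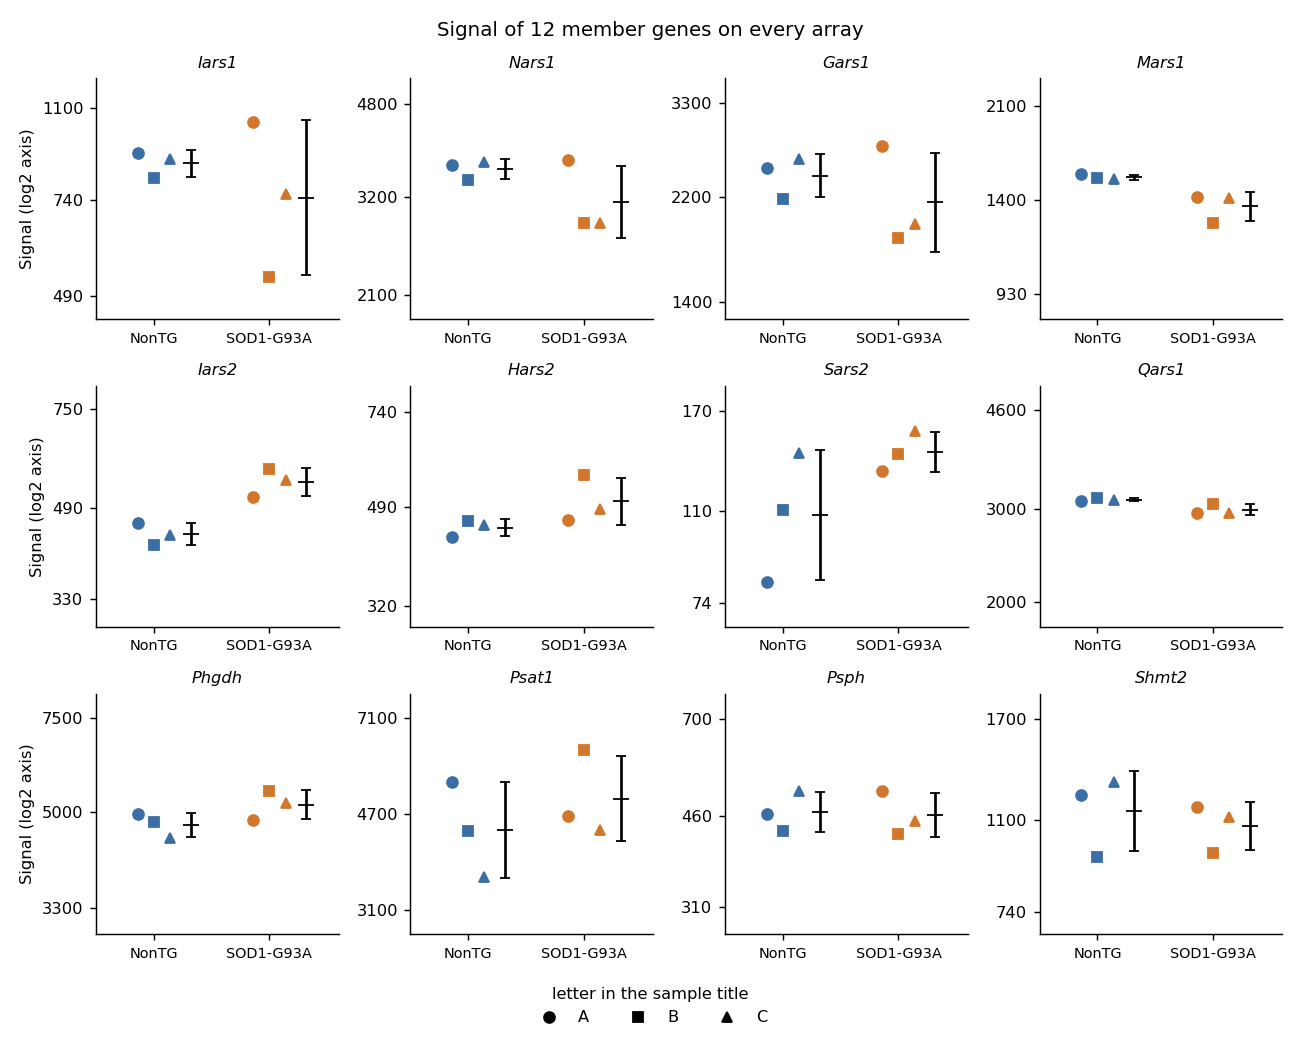
Signal (vertical axes, log2 scale, each spanning the same fold range) of 12 member genes on each of the 3 NonTG arrays (blue) and 3 SOD1-G93A arrays (orange); symbols give the letter, and black bars the mean ± SD of log2 signals (n = 3). Iars2 and Hars2 have all SOD1-G93A arrays above NonTG, Mars1 and Qars1 below, and SOD1-G93A A stands above B and C for Iars1, Nars1 and Gars1.

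Mitochondrial synthetases had a median difference of 0.13 over the 13 measured, with 9 positive, and also 0.13 over the 11 above the filter. This median too leaned on 1 array: it was 0.033 without SOD1-G93A B. Under a stricter filter, which leaves 5 of these genes, it was 0.061. Standard errors were 0.12 to 0.37 for the 11 tested.

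Iars2, the mitochondrial isoleucine enzyme, had NonTG signals of 459, 417 and 437 against 513, 579.7 and 553. The groups did not overlap, with SOD1-G93A the higher one, also within each letter (0.16, 0.47 and 0.34). The difference was 0.33 (SE 0.12, 95% interval 0.065 to 0.59), or 1.25-fold, with an unadjusted p of 0.0197 and an adjusted p of 0.9997 in limma. It stayed between 0.28 and 0.37 over the alternatives, with adjusted p of 0.766 to 0.9999.

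Hars2 had signals of 429.7, 462 and 453 in NonTG and 463, 562 and 487 in SOD1-G93A, without overlap, a difference of 0.17 (SE 0.12), or 0.085 without SOD1-G93A B. The gap was narrow: the lowest SOD1-G93A array was 463 and the highest NonTG array 462. A dimmer Hars2 probe set was at 0.048 (SE 0.26). Hars1 and Hars2, the cytosolic and mitochondrial histidine enzymes, are neighbours read in opposite directions, and their RefSeq starts are separated by 143 bases. That stretch is printed because both genes share it as a promoter region while Hars1 was at 0.041 and Hars2 at 0.17. It is shown on the strand of Hars2, with its 9 CG pairs in capitals, and holds no match to the core above.
Hars1 and Hars2, chr18:28672713-28672855, plus strand: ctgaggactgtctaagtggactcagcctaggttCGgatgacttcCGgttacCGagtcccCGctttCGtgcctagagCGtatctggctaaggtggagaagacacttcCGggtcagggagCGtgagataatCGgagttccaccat

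Sars2, which charges mitochondrial tRNA with serine, had 81.1, 111 and 142 in NonTG against 131, 141 and 156, a difference of 0.39 (SE 0.26, 95% interval -0.18 to 0.97). NonTG C lay among the SOD1-G93A arrays; the difference was 0.18 without NonTG A and 0.58 without NonTG C. Aars2, the alanine enzyme, had 87.8, 83.5 and 115 against 103, 127 and 108, a difference of 0.25 (SE 0.25).

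Ears2, the mitochondrial glutamate enzyme, had the largest difference of all members but was dim. Its signals were 22.4, 47.7 and 40.7 in NonTG, all under 66.7, and 97.8, 78.9 and 79.5 in SOD1-G93A, all above it. The difference was 1.27 as measured and 0.97 with a pseudocount of 16, so its size is uncertain; it was not part of the main test, and without the filter limma's adjusted p was 0.9998. Nars2, also dim, had 23.4, 43.0 and 38.3 against 46.5, 26.9 and 8.34, with widely spread SOD1-G93A arrays.

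The remaining mitochondrial synthetases overlapped between groups. Fars2 for phenylalanine (0.13), Cars2 for cysteine (0.15), Tars2 for threonine (0.061) and Wars2 for tryptophan (0.0062) were positive. Vars2 for valine (-0.011), Rars2 for arginine (-0.11) and Yars2 for tyrosine (-0.14) were negative. Cars2 was the most variable above the filter, from 73.7 to 219.6 within NonTG alone.

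Set side by side by amino acid, the mitochondrial gene had the more positive difference in 10 of 14 pairs, which cover 13 amino acids because Farsa and Farsb both pair with Fars2, and the median gap was 0.14. With both genes above the filter it was 9 of 12. These counts rest on SOD1-G93A B: without it they were 6 of 14 and 5 of 12, with a median gap of -0.015 in each. Without any other single array they were 8 to 11 of 14 and 7 to 10 of 12. The widest gap above the filter was for isoleucine, at 0.54, which was 0.25 without SOD1-G93A B. The log2 ratio of Iars2 to Iars1 signal was -0.99, -0.96 and -1.02 on NonTG A, B and C and -1.01, 0.13 and -0.46 on SOD1-G93A A, B and C. The level of this ratio has no meaning across probe sets, but its spread over arrays does: SOD1-G93A A sat with NonTG, and B and C stood above. The next widest were serine (0.41), which was the widest without SOD1-G93A B (0.33) or NonTG C (0.61), then phenylalanine with Farsb (0.27). For threonine (-0.0052), tyrosine (-0.031), arginine (-0.12) and, with Nars2 below the filter, asparagine (-0.42) the cytosolic gene had the more positive value. All pairs share the same 6 arrays, and no test was made over them.

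**Figure D3:**
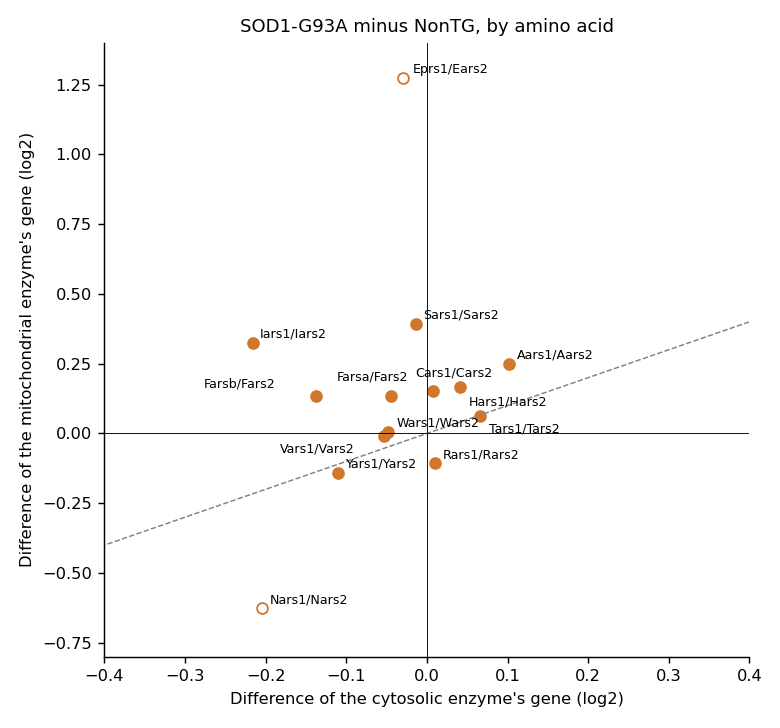
Each point is an amino acid with a cytosolic and a mitochondrial synthetase gene; axes give the difference of each gene in log2 units, SOD1-G93A minus NonTG, drawn to different scales, and the dashed line marks equal differences. Open circles have a mitochondrial gene below the filter. Of the 14 points 10 lie above the line, with Iars1/Iars2 the farthest of the filled ones; without the array SOD1-G93A B 6 would, with Sars1/Sars2 the farthest.

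Serine synthesis genes were bright and did not differ beyond their spread. Phgdh, the first and committed enzyme, had signals of 4957, 4782 and 4470.0 in NonTG against 4826, 5467 and 5203. SOD1-G93A B and C lay above all NonTG arrays and A among them. The difference was 0.12 (SE 0.079, 95% interval -0.053 to 0.30), or 1.09-fold.

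Psat1, the aminotransferase of the second step, had 5406, 4364 and 3577 in NonTG and 4653, 6184 and 4386 in SOD1-G93A, overlapping, with the highest value on SOD1-G93A B. Its difference was 0.19 (SE 0.16, interval -0.18 to 0.57), and 0.043 without SOD1-G93A B, 0.046 without NonTG C and 0.34 without NonTG A. Psph, the phosphatase that releases serine, had 465, 430.4 and 512 against 512, 426 and 450.2, a difference of -0.021 (SE 0.13) that turned positive without NonTG C (0.045) or SOD1-G93A B (0.037). Thus the first 2 enzymes had positive differences and the last one was near 0.

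Shmt1, the cytosolic enzyme that turns serine into glycine, was dimmer, with 171, 259 and 193 against 195, 159 and 189.7 and a difference of -0.18 (SE 0.21). That difference rests on NonTG B, without which it was -0.0093. Shmt2, its mitochondrial form, had 1228, 938 and 1296 against 1163, 955 and 1114, a difference of -0.090 (SE 0.14), which was 0.00045 without NonTG C. In both groups the B array of Shmt2 was the lowest. The median over the 5 serine and glycine genes was -0.021 and its sign was not stable: it was -0.096 without SOD1-G93A A, 0.045 without NonTG C and 0.037 without SOD1-G93A B.

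Genes of folate one-carbon metabolism, which take up the carbon that Shmt1 and Shmt2 release, were listed together with those of glycine cleavage. The list gave 0 calls among 12 tested of 13 measured, with a median of 0.027 over the 13. The smallest unadjusted p belonged to Mthfd2, the mitochondrial folate dehydrogenase, at -0.35 (SE 0.24), followed by Mthfd1l (-0.43, SE 0.32) and Gcsh, a glycine cleavage subunit (0.13, SE 0.10). Mthfd2 signals were 438, 332 and 472 in NonTG and 460.4, 239.5 and 301 in SOD1-G93A, with A among NonTG and B and C below it.

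Atf4 and 22 of its known targets outside the members had a median difference of -0.098, with 15 of 23 negative and 0 called; without 1 array the median ran from -0.19 (without SOD1-G93A A) to -0.033 (without SOD1-G93A B). Atf4 itself had signals of 5218, 5146 and 5757 in NonTG against 5603, 3916 and 4623, a difference of -0.20 (SE 0.12). Asns, asparagine synthetase and a standard readout of the response, had 1374, 1276 and 1892 against 1551, 910.04 and 1337, a difference of -0.27 (SE 0.21). For both genes SOD1-G93A A lay within NonTG and SOD1-G93A B was the lowest array.

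The 3 with the smallest unadjusted p were Slc7a11, the cystine transporter, at 0.49 (SE 0.17), Slc7a1, a transporter of arginine and lysine, at -0.42 (SE 0.16), and Ddit3, the stress transcription factor Chop, at -0.32 (SE 0.15). Each of these had no overlap between groups. Slc7a1 signals were 481, 417 and 518 against 414, 302 and 344, and those of Slc7a11 were 339, 438 and 349.6 against 440.5, 629 and 518, so these transporters of the list lay on opposite sides.

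Some of the cytosolic synthetases and amino acid response genes had one order over the letters, which was noticed in the data and is given as values. Within letter A, SOD1-G93A was above NonTG for Iars1 (0.19), Gars1 (0.14), Atf4 (0.10) and Asns (0.18). Within B the values were -0.62, -0.24, -0.39 and -0.49, and within C -0.22, -0.40, -0.32 and -0.50. This order, above in A and below in B and C, held for 5 of 17 cytosolic synthetases, both Gars1 and Kars1, and 11 of 23 amino acid response genes, against 15.3% of all genes measured. It held for 2 of 13 mitochondrial synthetases, 2 of 5 serine and glycine genes (Psph and Shmt1) and 11 of the 39 members in all. It also held for 4 of 7 pericyte and smooth muscle markers, and their part in the order was not tested. Some of the 5 cytosolic synthetases had the order only by values near 0. Lars1 was at 0.00025 in A and Vars1 at -0.0015 in C. Aars1 was at -0.041 in B and -0.021 in C. The dimmer Gars1 probe set did not have the order, at 0.033 in C. Phgdh and Psat1 had the opposite order, with -0.039 and -0.22 in A, 0.19 and 0.50 in B, and 0.22 and 0.29 in C. The share of all genes with the opposite order was not computed.

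**Figure D4:**
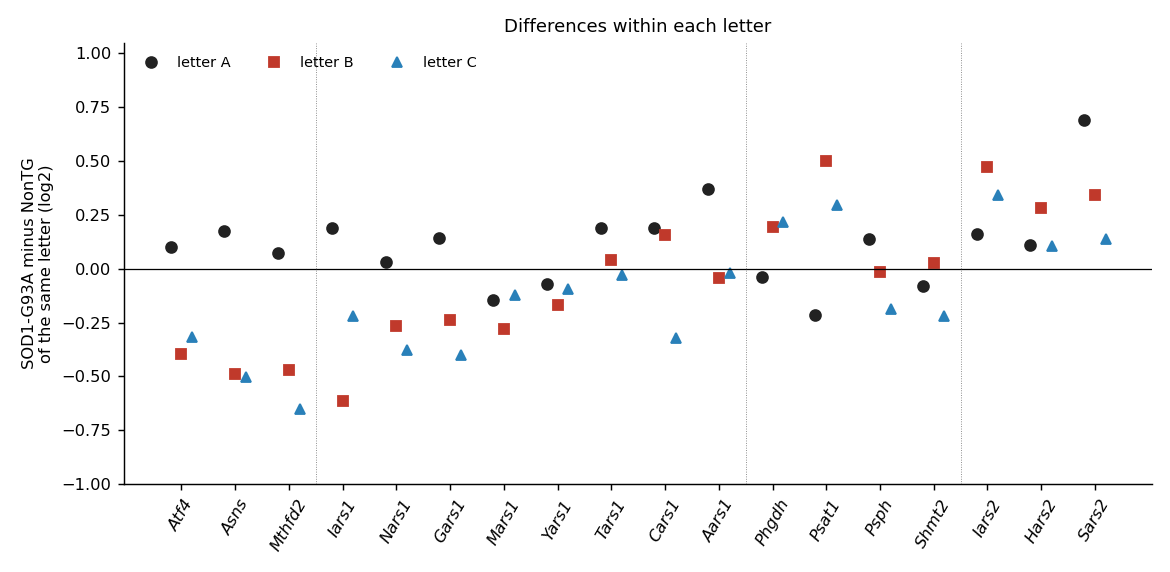
Difference between the SOD1-G93A and NonTG arrays of the same letter (vertical axis, log2) for 18 genes: 3 amino acid response and folate genes, cytosolic synthetases with Gars1, serine and glycine genes, and 3 mitochondrial synthetases, separated by dotted lines. Atf4, Asns, Mthfd2, Iars1, Nars1, Gars1, Aars1 and Psph are above 0 in A and below in B and C. Phgdh and Psat1 are the reverse, and Iars2, Hars2 and Sars2 are above 0 in all 3 letters.

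The order over the letters does not rest on B alone: the median of the amino acid response genes was -0.22 within B and -0.23 within C. Array SOD1-G93A B was often the extreme one in several lists. It had the lowest signal of the 6 arrays for 8 of 17 cytosolic synthetases and 11 of 23 amino acid response genes, against 18.4% of all genes, and the highest for 6 of 13 mitochondrial synthetases, against 22.7%. The same array had the lowest signal for 7 of 7 pericyte and smooth muscle markers and 3 of 6 fibroblast markers. The summed-up level of the pericyte list is the median of its genes after each is centred on its mean over the 6 arrays. This level was -0.89 on SOD1-G93A B and between -0.25 and 0.52 on the others. All 7 of its markers had negative differences, with a median of -0.30. Acta2, smooth muscle actin, had 2072.0 on SOD1-G93A B against 3549 to 5576 in NonTG. Values of other marker lists follow. Of 6 fibroblast markers 4 had negative differences, with a median of -0.15, while Dcn, a proteoglycan of fibroblasts, lay between 59.1 and 92.3 in NonTG but between 283 and 667 in SOD1-G93A. Positive differences were found for 7 of 9 oligodendrocyte lineage markers and 9 of 9 markers of cycling cells, and the level of the cycling list ran from -0.41 to 0.37 in NonTG and from -0.23 to 0.25 in SOD1-G93A. For astrocyte markers that level ran from -0.071 to 0.093 in NonTG and from -0.13 to 0.068 in SOD1-G93A. The part of other cell types in the synthetase values was not tested.

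Genes acting beside the synthetases gave 0 calls as well. Among 13 genes that sense uncharged tRNA or form the Eif2 machinery, the median was 0.037. Eif2ak4, the kinase named above, had signals of 549, 385 and 396 in NonTG and 370.2, 284 and 375 in SOD1-G93A, without overlap, a difference of -0.36 (SE 0.18). Eif2b3, a subunit of the exchange factor that this kinase pathway slows, was at 0.24 (SE 0.12), also without overlap, and Eif2s1, the phosphorylated subunit of Eif2, at 0.099 (SE 0.081).

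Genes listed as elongation factors of the cytosol had a median of -0.088, with 6 of 7 negative. The positive one was Eef1e1 (0.089), named above as a scaffold protein. Eef2, the translocation factor, had 9756, 10286 and 10167 against 8968, 8852 and 9469, without overlap, a difference of -0.15 (SE 0.065). Eef1b2 was at -0.080 (SE 0.060) and Eef1a1, the tRNA carrier, at -0.10 (SE 0.080). The mitochondrial translation factors leaned the other way, with a median of 0.076 and 10 of 12 positive. Gfm1, an elongation factor, was at 0.20 (SE 0.11), above NonTG on all SOD1-G93A arrays, and Mtif2, an initiation factor, at 0.16 (SE 0.14). Qrsl1, a subunit of the enzyme that makes glutaminyl-tRNA in mitochondria, was at -0.30 (SE 0.18).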

How the data were processed

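The deposited values are intensities, one linear signal per probe set and array, deposited by the authors; the submitters' processing notes name MAS5 and GCOS 1.4 for them. The design text describes GC-RMA and log values instead, which these are not. The mean after trimming 2% at each end was 500.16 to 500.17 on every array, as scaling to one target gives, and detection calls were not used here. Log2 was taken with no pseudocount. After leaving out 57 control probe sets and those at or below the 40th percentile of mean log2 signal, 18625 were tested.

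The groups were compared by limma 3.58.1 (R 4.3.3; lmFit and eBayes with trend). Tests were two-sided, and p-values were adjusted by Benjamini-Hochberg across the tested probe sets, with a threshold of 0.05. The script was tested on simulated data. The simulated shifts were far larger than the differences of the tested members. That run does not show whether differences of this size would be called. The number of arrays limits the precision. Symbols came from the platform annotation; 20758 of 20826 probe sets with 1 symbol matched the rat RefSeq table by Entrez identifier, and 436 with several symbols named no gene. Promoter windows are RefSeq's (GRCr8).

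Full values are given for the serine, glycine, scaffold and shared-compartment genes, for synthetases without overlap between groups, and for the 4 smallest unadjusted p in each compartment; related lists give the 3 smallest, and Atf4, Asns and the order over letters were picked after their values were seen. Members and lists were chosen with earlier results of these data known. Both groups use the same letters. Deviations from the group means correlated by 0.30, 0.25 and 0.20 between arrays of the same letter and by -0.28 to 0.025 otherwise. The deviations within a group cancel out, so positive values within letters go with lower ones otherwise. Whether the letters pair the arrays is therefore not settled. A paired fit was an alternative, and the standard errors and intervals given come from the unpaired fit. The other alternatives were no filter or a stricter one, a pseudocount, quantile normalization, array weights, the mean over a gene's probe sets, and leaving out each array; the last was added after seeing the data for the motif and amino acid response medians and the pairs. Some items are not reported here.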

Additional observations from a re-analysis of the deposited data

How the results depend on the processing

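limma called 0 probe sets under every alternative run for the calls, with 474 at an unadjusted p below 0.05 in the main comparison, 1090 with the letter as a replicate block and 343 to 1185 with 1 array left out. The block moved no member past the threshold. Without 1 array, the mitochondrial median ran from 0.033 to 0.17 and the serine and glycine median from -0.096 to 0.045; under the stricter filter, which drops Shmt1, the latter was 0.052. Of 232 recomputed differences over 19 members, 223 kept their direction. Part of these could not turn, since a change of filter or the replicate block leaves a gene's difference as it was. The 9 with the other sign, all from leaving out 1 array, belonged to 5 genes whose differences then ran from -0.15 to 0.076 (Aimp1), -0.45 to 0.031 (Iars1), -0.12 to 0.10 (Kars1), -0.096 to 0.045 (Psph) and -0.23 to 0.00045 (Shmt2). Signals under 66.7 limit what can be said of Ears2 and Nars2.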

Other observations

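Among 9 other measured genes of tRNA handling, with a median difference of 0.014 and 0 called, Dtd1, which clears wrongly charged D-amino acids from tRNA, had all SOD1-G93A arrays above NonTG: 1757, 1694 and 1807 against 1598, 1417 and 1595, a difference of 0.19 (SE 0.088). Lcmt2, which modifies a tRNA base, was at 0.31 (SE 0.28), with overlapping groups.

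Transporters and enzymes that use serine and glycine gave 0 calls among 6 tested of 8 measured, with a median of -0.048 over the 6, of which 4 were negative, and of 0.075 over the 8, so the sign of the latter comes from dim genes. Slc6a9, the glycine transporter of astrocytes, had signals of 311, 382 and 383 in NonTG and 345, 534 and 401 in SOD1-G93A, a difference of 0.23 (SE 0.18). Slc38a1, a transporter of neutral amino acids, was at 0.17 (SE 0.16) and Slc38a2 at -0.078 (SE 0.11). The array SOD1-G93A B was the highest of the 6 for Slc6a9 and Slc38a1, as it was for Psat1 and Phgdh.

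In 15 of the 39 genes more than 1 probe set had the symbol. The further probe sets of Cars1 ranged from -0.062 to 0.35 and those of Eprs1 above the filter were at -0.085 and -0.014. A second Wars2 probe set was at 0.17 (SE 0.20) where the first was at 0.0062. Other further probe sets above the filter were at -0.0024 (Aimp1), 0.049 (Hars1), -0.31 (Lars1, SE 0.48), -0.040 (Wars1) and -0.14 (Tars2). Those below it were at -0.56 (Iars1), -0.52 (Farsb), -1.07 (Vars1), -1.37 (Eprs1) and -1.53 (Kars1), on signals too dim to size a difference.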
